A study of Mus musculus with 81 samples.

Results

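The 6 libraries described here, of 81 in the series, come from bone marrow-derived macrophages (BMDMs) grown with an antibody against the type I interferon receptor. There are 3 from mice without the histone H3.3 genes in their macrophages (H3.3cKO, below cKO) and 3 from wild type (WT) mice. They are the libraries whose titles name the IFNAR1 antibody, and the question was what of the difference between cKO and WT cells remained under the block. Below, under the block means with this antibody. How completely it blocked the receptor was not tested, nor was the part of an incomplete block in the differences that remained. WT mice were H3f3a fl/fl H3f3b fl/fl without Cre, and cKO mice carried the same floxed alleles of both H3.3 genes with LysM cre/cre, on a C57BL/6 background and of both sexes. Cre is expressed from the Lyz2 locus and acts in macrophages and granulocytes, and since both copies of Lyz2 carry the insertion, loss of H3.3 cannot be told apart from loss of Lyz2 in these cells. Bone marrow cells were cultured in medium conditioned by L929 cells, a source of the macrophage growth factor M-CSF, with the monoclonal antibody MAR1-5A3 against IFNAR1 (mouse IgG1) present from the start of culture and renewed regularly. Parallel WT and cKO cultures, 3 libraries each, received an IgG1 κ isotype control antibody or no antibody. RNA was sequenced as ribosomal RNA-depleted, paired-end libraries, and the labels do not say whether libraries of the same number share a mouse, so the p-values measure the spread between these libraries.

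Type I interferons bind a receptor made of IFNAR1 and IFNAR2, whose kinases TYK2 and JAK1 phosphorylate STAT proteins. STAT2 enters the nucleus with IRF9 in a complex that binds the interferon-stimulated response element (ISRE) in the promoters of interferon-stimulated genes (ISGs), among them the IFIT, OAS, MX and guanylate-binding proteins. H3.3 is the histone H3 variant that is placed into chromatin outside of DNA replication, at active genes and at silent repeats, and it is encoded by H3f3a and H3f3b.

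Counts on genes were 27295864, 19964652 and 20017249 in WT replicates 1 to 3 and 17600897, 12071734 and 9856082 in cKO replicates 1 to 3, so that every cKO library was shallower than every WT library. The part of depth in the results was not tested. Levels are given below as CPM, the counts of a gene per 1000000 counts of the TMM-scaled library, and differences as log2 fold changes of cKO against WT with their standard error (SE). Called are the genes with an adjusted p under 0.05 in edgeR's quasi-likelihood test, fitted to all 18 libraries of the antibody experiment. On the first principal component of these 18 libraries (44.6% of the variance), WT replicates 1 and 2 (-72.8 and -110) and cKO replicate 1 (-73.4) of the IFNAR1 antibody stood apart from WT replicate 3 (14.7) and from cKO replicates 2 and 3 (21.4 and 25.0). Results are therefore also given without these 3 libraries, which leaves 1 WT library that is assumed to vary like the other groups. Without antibody, WT replicates 1 to 3 lay at -10.2, -85.2 and -41.6 on this component and cKO replicates 1 to 3 at 17.3, 27.4 and 29.9.

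**Figure D1:**
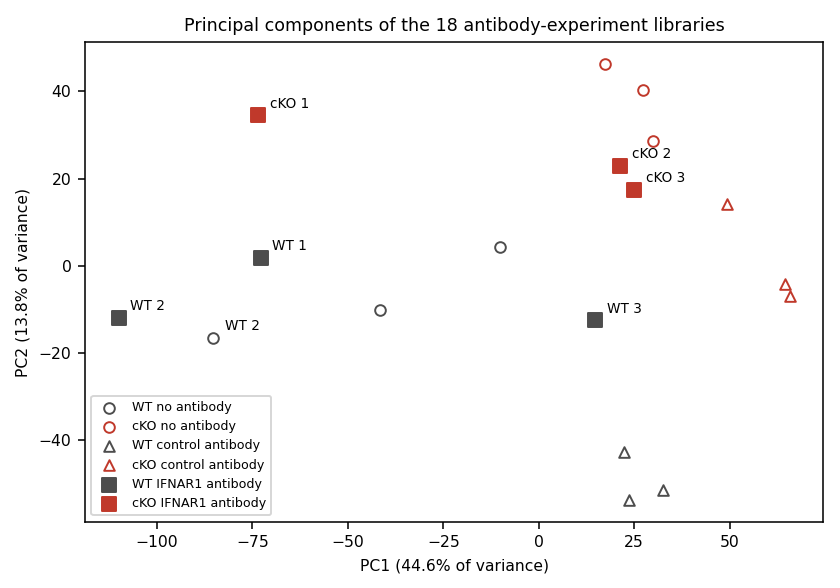
Each point is 1 of the 18 libraries of the antibody experiment, placed by its scores on the first (44.6% of the variance) and second (13.8%) principal components of log2 CPM, with filled squares for the IFNAR1 antibody and open symbols for the other arms. WT replicates 1 and 2 and cKO replicate 1 of the IFNAR1 antibody lie to the left, at -72.8, -110 and -73.4, and the other 3 libraries of that arm lie between 14.7 and 25.0.

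The targeted genes followed the labels in all 6 libraries. H3f3a (ENSMUSG00000060743, chr1:180800832-180813943, minus strand, GRCm38) was at 43.4, 93.8 and 35.3 CPM in the WT and at 11, 4.72 and 5.43 CPM in the cKO libraries, a log2 fold change of -3.01 (SE 0.38, adjusted p = 0.00072). H3f3b (ENSMUSG00000016559, chr11:116021912-116027962, minus strand) was at 295, 298 and 325 CPM in the WT and at 40.1, 48.9 and 16.7 CPM in the cKO libraries (log2 fold change -3.12 with SE 0.34, adjusted p = 0.000176). The groups did not overlap for either gene, and both stayed called without the 3 libraries that stand apart (-2.81 and -3.30). Lyz2, the lysozyme gene that carries Cre, was at 8782, 13930 and 13470 CPM in the WT and at 15, 14.7 and 19.4 CPM in the cKO libraries (log2 fold change -9.53 with SE 0.40, adjusted p = 6.12e-10). Its neighbour Lyz1, which encodes a second lysozyme of similar sequence 10.5 kb away, was higher in cKO cells, at 25.5, 29.0 and 27.2 CPM against 4.38, 10.4 and 6.57 CPM (log2 fold change 1.94, adjusted p = 0.0453). Reads that align equally well to both genes were left out of the counts, so its level is uncertain, and it was not called without the 3 libraries (2.09, adjusted p = 0.381).

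Macrophage markers were high in every library. The summed level of 15 macrophage markers ran from 10500 to 14400 CPM in the WT and from 12300 to 12400 CPM in the cKO libraries. Summed over the 5 tested of 13 neutrophil markers, the level was 98.0 to 131 CPM in WT and 180 to 208 CPM in cKO libraries, with Csf3r, the receptor of granulocyte colony-stimulating factor, called higher (log2 fold change 0.68, adjusted p = 0.0469; 0.37 and adjusted p = 0.788 without the 3 libraries). Mmp8 and Csf3r held most of these counts. Mmp9 had 75, 69 and 94 counts in WT against 13, 37 and 25 in cKO libraries (log2 fold change -0.93, not called, adjusted p = 0.439), and S100a9, Ngp, Camp, Ltf and Ly6g, which define neutrophils, had 0 to 12 counts. Of 10 B cell markers 4 were tested, 4 others had no count in any of the 6 libraries, and the summed level was 6.42 to 9.35 CPM in WT and 9.70 to 20.0 CPM in cKO libraries. Cd22, an inhibitory receptor of B cells, was the B cell marker called (log2 fold change 1.47, adjusted p = 0.00423). Of the 4 tested, 2 had a log2 fold change above 0 and 2 below, and Cd22 and Cd79b held most of the counts. Cd79a had 11, 6 and 16 counts in WT against 3, 5 and 7 in cKO libraries, and Ebf1 1, 0 and 15 against 0, 5 and 0. The 4 tested of 10 erythroid and megakaryocyte markers summed to 152 to 269 CPM in WT and to 271 to 408 CPM in cKO libraries, and 3 of the 10 had no count. Nearly all of this was Pf4, a platelet chemokine (148, 267 and 201 CPM in WT, 269, 401 and 394 CPM in cKO libraries, not called, adjusted p = 0.0692), whereas Alas2, Ppbp and Itga2b had 3 to 78 counts and overlapped. Summed levels of the monocyte (13 of 16 tested), dendritic cell (6 of 10), T and NK cell (2 of 10), stromal (11 of 14) and mast cell markers (1 of 8) overlapped between the groups, and 2 dendritic, 5 T and NK, 1 stromal and 3 mast cell markers had no count. In RNA from whole cultures, fewer cells of a type and less RNA per cell cannot be told apart, and the part of other cell types in the results was not tested.

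Under the IFNAR1 block, 82 genes were higher and 34 lower in cKO than in WT cells, of 17191 tested (0.477% and 0.198%, together 0.675%). The median log2 fold change over all genes tested was -0.00, and 2012 genes had an unadjusted p under 0.05. Of the 82 higher genes, 30 belonged to the 4 lists of interferon-inducible genes described below, which hold 106 tested genes, or 0.617% of those tested, and 39 were raised by interferon-γ in WT BMDMs on day 8, as were 7.49% of the genes tested. Of the 34 lower genes, none was in the 4 lists and 3 were raised by interferon-γ. With control antibody, 495 genes were higher and 270 lower in cKO cells (2.88% and 1.57% of those tested, together 4.45%), and without antibody 582 and 639 (3.39% and 3.72%, together 7.1%). The arms have no library in common. Of the 82 higher genes, 72 were also higher with control antibody, which is 87.8% of the 82 and 14.5% of the 495, and 74 were also higher without antibody, which is 90.2% of the 82 and 12.7% of the 582. Of the 34 lower genes, 22 were also lower with control antibody and 27 without antibody (64.7% and 79.4% of the 34, 8.15% of the 270 and 4.23% of the 639).

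The number of genes called depended on single libraries. Leaving out WT replicate 1, WT replicate 2, cKO replicate 2 or cKO replicate 3 gave 54, 75, 59 or 52 calls, whereas leaving out WT replicate 3 gave 740 and leaving out cKO replicate 1 gave 306. Without the 3 libraries that stand apart 36 genes were called, 27 higher and 9 lower, and 22 of the 82 and 7 of the 34 were called again. In the fit of the 6 libraries alone, 7 genes were called, with Lyz2 lower and Ifit3, Rsad2, Atp1b3, Hgsnat, Pomk and Gm1848 higher. The fit of the 6 libraries tested 80 of the 82 higher and 33 of the 34 lower genes, the other fits all of them, and every one tested kept its direction.

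**Figure D2:**
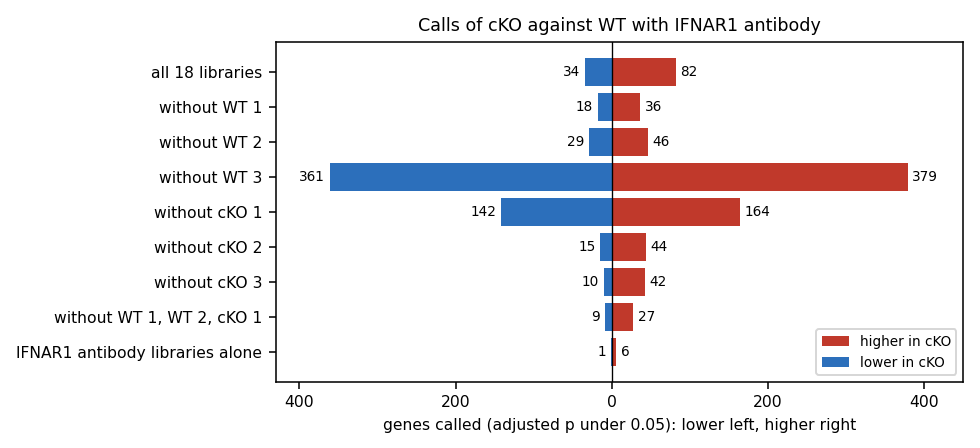
Bars give the number of genes called in cKO against WT with IFNAR1 antibody (adjusted p under 0.05), higher in cKO to the right and lower to the left, for the fit to all 18 libraries and for fits without the named libraries of the arm or with its 6 libraries alone. The count runs from 1 lower and 6 higher with the 6 libraries alone to 361 lower and 379 higher without WT replicate 3.

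Among the 50 tested antiviral effector genes, 18 were higher and none lower in cKO cells under the block, with a median log2 fold change of 1.25 and 44 of 50 above 0. The promoters of 4 genes higher in cKO cells are shown because they carry, in capitals, the letters GAAA, any 2 bases and GAAA again, which lie within the ISRE. The letters were searched on both strands of RefSeq promoter windows (GRCm38.p6, 250 bases before to 50 after the gene start), with overlapping matches counted separately. On the opposite strand they read TTTC, any 2 bases and TTTC. The stretches give the 250 bases before the start, 5′ to 3′ on the strand of the gene, for Ifit3 (chr19:34583279-34583528, plus strand, matches that begin 156 and 122 bases before the start), Ifit1 (chr19:34640639-34640888, plus strand, 104 and 85 bases), Rsad2 (chr12:26456453-26456702, minus strand, 120 bases) and Cxcl10 (chr5:92348890-92349139, minus strand, 213 bases).
Ifit3: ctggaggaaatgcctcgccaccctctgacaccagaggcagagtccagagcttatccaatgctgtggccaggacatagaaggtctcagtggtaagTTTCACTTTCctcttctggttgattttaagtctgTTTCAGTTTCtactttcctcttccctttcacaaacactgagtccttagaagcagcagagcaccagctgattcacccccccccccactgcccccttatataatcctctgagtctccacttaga
Ifit1: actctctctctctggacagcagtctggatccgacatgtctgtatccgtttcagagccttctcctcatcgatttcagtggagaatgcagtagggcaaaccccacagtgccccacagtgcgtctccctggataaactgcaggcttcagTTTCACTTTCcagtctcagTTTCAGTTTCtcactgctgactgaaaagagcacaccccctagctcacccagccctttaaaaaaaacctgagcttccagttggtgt
Rsad2: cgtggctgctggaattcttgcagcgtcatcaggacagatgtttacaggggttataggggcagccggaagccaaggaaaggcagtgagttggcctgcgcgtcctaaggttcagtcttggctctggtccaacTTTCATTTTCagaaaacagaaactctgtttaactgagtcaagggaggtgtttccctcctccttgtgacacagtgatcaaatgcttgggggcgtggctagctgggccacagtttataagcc
Cxcl10: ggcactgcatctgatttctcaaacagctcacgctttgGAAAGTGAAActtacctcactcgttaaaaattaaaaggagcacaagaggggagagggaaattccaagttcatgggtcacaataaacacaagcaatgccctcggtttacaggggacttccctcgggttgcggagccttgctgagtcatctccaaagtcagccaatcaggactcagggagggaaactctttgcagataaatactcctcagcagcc

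Of all 32851 promoter windows, 1131 (3.44%) held a match, and of the 10826 tested genes with a window 420 did (3.88%). The share was 47.0% in the 4 interferon lists (39 of 83 genes with a window). Of the genes higher in cKO cells under the block, 18 of the 55 with a window held a match (32.7%). These were 16 of 22 in the interferon lists (72.7%) and 2 of 33 outside them (6.06%), Bco2 and Cxcl10. Of the lower genes none of 25 held a match in this window. The lists were chosen as interferon genes, so the share in them is a description.

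Ifit3, Ifit1, Ifit2 and Ifit3b encode RNA-binding proteins that restrain viral translation. Ifit3 was at 0.307, 0.188 and 0.416 CPM in the WT and at 17.7, 8.26 and 13.2 CPM in the cKO libraries under the block (log2 fold change 5.36 with SE 0.63, adjusted p = 0.000272). Ifit1 was at 0.884, 0.690 and 1.16 CPM in the WT and at 7.42, 10.3 and 12.2 CPM in the cKO libraries (log2 fold change 3.43 with SE 0.46, adjusted p = 0.00119). Ifit2 was at 8.42, 6.46 and 4.81 CPM against 58.7, 34.0 and 35.1 CPM (log2 fold change 2.70, adjusted p = 0.0129). In each of these the lowest cKO library was above the highest WT library. Ifit3b, which is near-identical to Ifit3 and counted here without the reads that align to both, had 2 counts in all WT and 126 in all cKO libraries, a depth-scaled ratio of 107 (exact 95% interval 29.1 to 895, counting error only). Without the 3 libraries that stand apart, the log2 fold change was 4.65 for Ifit3 (adjusted p = 0.129), 3.27 for Ifit1 (adjusted p = 0.119) and 2.84 for Ifit2 (adjusted p = 0.292).

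Rsad2 (viperin) and its neighbour Cmpk2, a mitochondrial nucleotide kinase, were both higher in cKO cells. Rsad2 was at 7.92, 7.03 and 6.62 CPM in the WT and at 53.5, 61.1 and 79.4 CPM in the cKO libraries (log2 fold change 3.17 with SE 0.36, adjusted p = 0.000216). It was the 1 antiviral effector still called without the 3 libraries (3.4, adjusted p = 0.0439). Cmpk2 was at 0.769, 1.38 and 3.24 CPM against 13.9, 33.7 and 43.1 CPM (log2 fold change 4.07 with SE 0.64, adjusted p = 0.00552). The groups of both genes did not overlap.

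Of the oligoadenylate synthetases and their relatives, several of which sense double-stranded RNA, 6 rose, Oas1a, Oas1g, Oas2, Oas3, Oasl1 and Oasl2. Oasl1 was at 0.5, 0.439 and 0.694 CPM in the WT and at 9.07, 5.11 and 7.43 CPM in the cKO libraries (log2 fold change 3.70 with SE 0.42, adjusted p = 0.000216). Oasl2 was at 0.577, 0.816 and 2.27 CPM against 27.8, 13.1 and 13.6 CPM (log2 fold change 3.89 with SE 0.60, adjusted p = 0.00423). Oas3 was at 8.49, 6.34 and 6.38 CPM against 103, 25.1 and 24.3 CPM (log2 fold change 2.84, adjusted p = 0.0155). The cKO library that stands apart, replicate 1, was the highest for Oasl1, Oasl2 and Oas3, and none of the 3 genes was called without the 3 libraries (3.15, 2.55 and 1.95). Oas1a and Oas1g are close in sequence, and reads that align equally well to both were left out.

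Rtp4, a chaperone of G protein-coupled receptors that is induced by interferon, was at 0.231, 0.251 and 0.324 CPM in the WT and at 10.9, 2.67 and 3.05 CPM in the cKO libraries (log2 fold change 4.36 with SE 0.77, adjusted p = 0.0129). Mx1, a dynamin-like GTPase, was at 4.04, 1.38 and 2.31 CPM against 16.7, 13.4 and 16.2 CPM (log2 fold change 2.55, adjusted p = 0.00552). Isg15, a ubiquitin-like modifier, was at 1.84, 2.26 and 1.29 CPM against 7.42, 6.05 and 7.15 CPM (log2 fold change 1.94 with SE 0.42, adjusted p = 0.0481). The groups of the 3 genes did not overlap, and cKO replicate 1 was the highest library for each. Ifi44, at 0.0384, 0 and 0.278 CPM in the WT and 3.17, 1.42 and 2 CPM in the cKO libraries, was called near the threshold (log2 fold change 4.25, adjusted p = 0.0421). None of these 4 was called without the 3 libraries, at 3.1 for Rtp4 (adjusted p = 0.622), 2.66 for Mx1 (adjusted p = 0.134), 2.33 for Isg15 (adjusted p = 0.392) and 2.57 for Ifi44 (adjusted p = 0.826). Summed over the 50 antiviral effectors, the level was 1480 to 1640 CPM in WT and 1860 to 2640 CPM in cKO libraries with IFNAR1 antibody, 1590 to 1610 and 2310 to 3140 CPM with control antibody, and 1870 to 2310 and 2820 to 4930 CPM without antibody. In the control antibody arm 31 of the 50 were higher and in the arm without antibody 35, with medians of 1.78 and 1.81, and none was lower in either. The median under the block was 0.85 without the 3 libraries, over 51 genes tested.

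**Figure D3:**
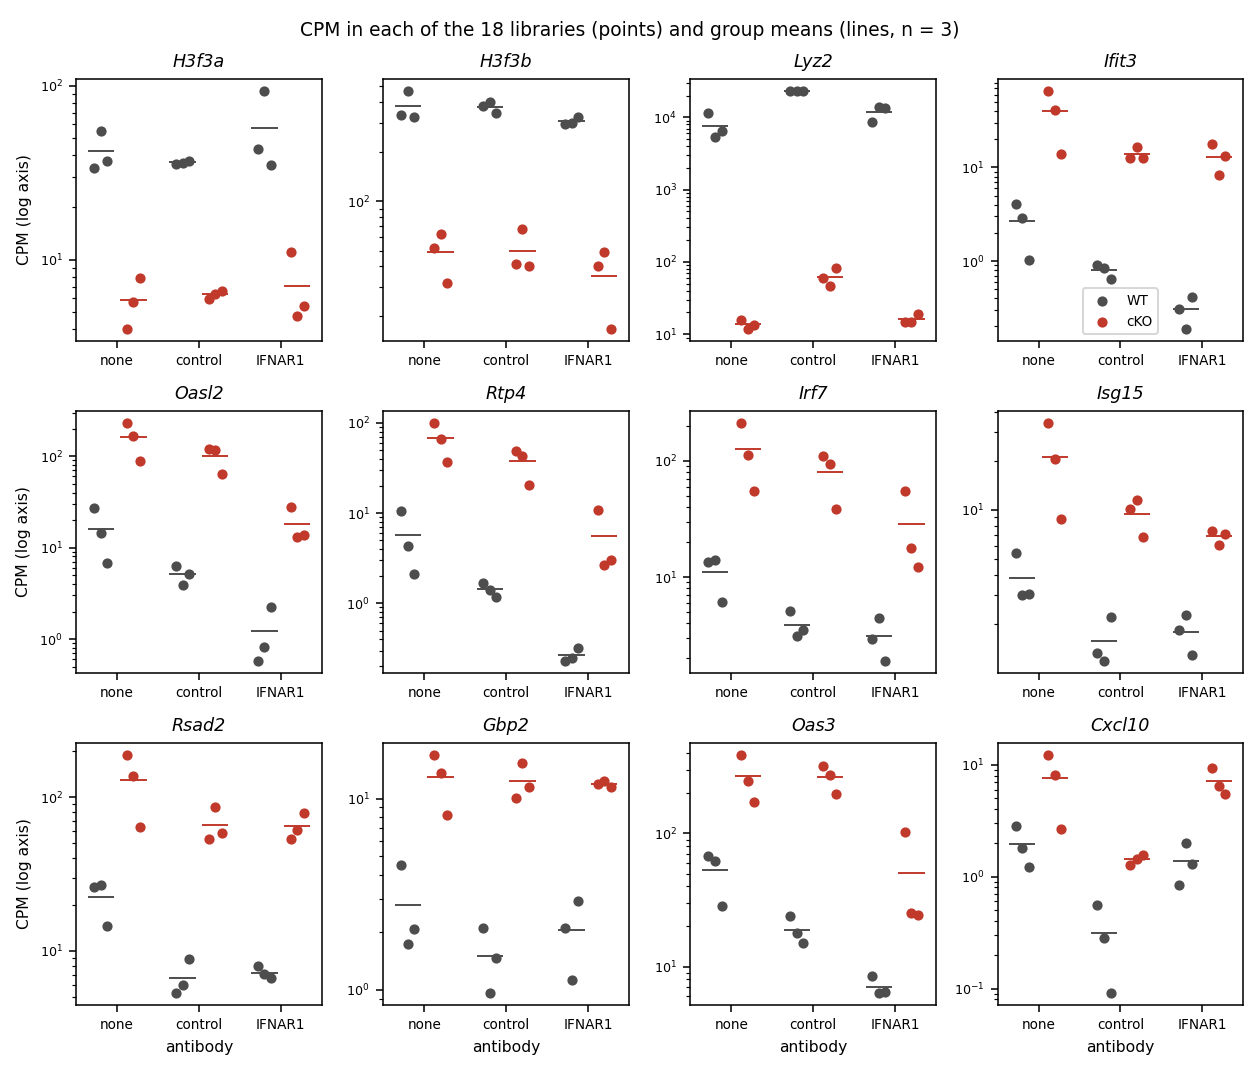
Points give the CPM (log axis) of 12 genes in each of the 18 libraries of the antibody experiment, WT in grey and cKO in red, by antibody (none, control, IFNAR1), and lines the group means (n = 3). With IFNAR1 antibody the cKO libraries lay above the WT libraries for every interferon-inducible gene shown, for example Ifit3 at 8.26 to 17.7 CPM against 0.188 to 0.416 CPM, and below them for H3f3a, H3f3b and Lyz2.

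Of the 23 tested genes of interferon signalling and feedback, 3 were called, all higher, and the median log2 fold change was 0.26. Irf7, the transcription factor that amplifies type I interferon production, was at 2.92, 4.45 and 1.90 CPM in the WT and at 55.0, 17.9 and 12.3 CPM in the cKO libraries (log2 fold change 3.22 with SE 0.63, adjusted p = 0.0257). Usp18, which removes ISG15 from proteins and dampens the receptor, was at 0.846, 2.57 and 1.53 CPM against 8.75, 5.66 and 6.10 CPM (log2 fold change 2.09, adjusted p = 0.0347). Nlrc5, the transactivator of MHC class I genes, was at 44.3, 30.2 and 55.8 CPM against 79.5, 69.0 and 85.9 CPM (log2 fold change 0.84, adjusted p = 0.0373). The groups did not overlap for these 3 genes, and without the 3 libraries their log2 fold changes were 2.99, 1.93 and 0.47, none called.

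Stat2 and Irf9, which encode parts of the complex that binds the ISRE, were not called under the block, although their groups did not overlap either. Stat2 was at 29.0, 28.2 and 26.8 CPM in the WT and at 48.8, 37.9 and 37.8 CPM in the cKO libraries (log2 fold change 0.57, adjusted p = 0.318), where the control antibody gave 1.57 and no antibody 1.97, both called. Irf9 was at 18.4, 15.3 and 22.5 CPM against 35.8, 30.1 and 27.2 CPM (log2 fold change 0.73, adjusted p = 0.229). Of the signalling and feedback genes 8 were higher with control antibody and 13 without antibody, with medians of 0.79 and 0.99. Groups that do not overlap were found for 4.19% (higher in cKO) and 4.46% (lower) of all genes tested under the block, for 18.2% and 18.5% with control antibody and for 20.2% and 19.2% without antibody.

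Cytosolic DNA-binding PYHIN proteins and Schlafen proteins formed a list of 17 tested genes, of which 5 were higher in cKO cells and none lower, with a median log2 fold change of 1.33. Ifi204, a DNA sensor, was at 9.69, 11.7 and 17.9 CPM in the WT and at 40.5, 29.6 and 28.5 CPM in the cKO libraries (log2 fold change 1.33 with SE 0.29, adjusted p = 0.0475). Slfn5 was at 8.80, 11.7 and 17.3 CPM against 42.1, 27.9 and 27.9 CPM (log2 fold change 1.38, adjusted p = 0.0405). The groups of both were apart, with WT replicate 3 the highest of the WT libraries. Ifi205 had 2 counts in all WT and 55 in all cKO libraries, a ratio of 46.8 (exact 95% interval 12.4 to 396), and Ifi213 had 3 and 67, a ratio of 38.0 (12.5 to 189). Without the 3 libraries 19 genes of the list were tested, none was called, and the median was 0.68.

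Guanylate-binding proteins (GBPs) and immunity-related GTPases (IRGs) attack the vacuoles of intracellular pathogens, and are strongly induced by interferon-γ. All 16 tested genes had a log2 fold change above 0 under the block, with a median of 2.07, and 4 were called, Iigp1, Tgtp2, Gbp7 and Gbp2. Gbp2 was at 2.11, 1.13 and 2.92 CPM in the WT and at 11.9, 12.3 and 11.4 CPM in the cKO libraries (log2 fold change 2.52 with SE 0.40, adjusted p = 0.00583). Gbp7 was at 0.346, 0.314 and 0.648 CPM against 2.41, 3.15 and 3.34 CPM (log2 fold change 2.73). Iigp1 had 1 count in all WT and 105 in all cKO libraries, a ratio of 179 (exact 95% interval 31.4 to 7130). The summed level of the 16 genes was 31.7 to 39.7 CPM in WT and 72.6 to 96.4 CPM in cKO libraries with IFNAR1 antibody, and 122 to 166 CPM in cKO libraries with control antibody. With control antibody 11 were called higher (median 3.0) and without antibody 14 (median 2.48). Without the 3 libraries none of the 16 was called under the block and the median was 1.48, with 2.02 for Gbp2 (adjusted p = 0.301).

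**Figure D4:**
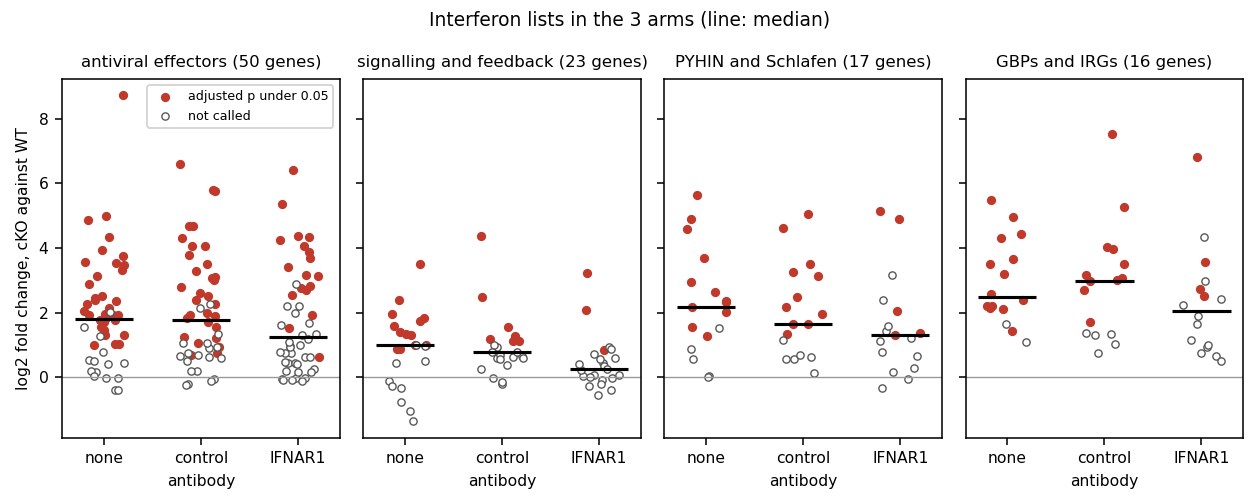
Each point is the log2 fold change of cKO against WT for 1 gene of a list of interferon-inducible genes in 1 arm of the antibody experiment, red where called (adjusted p under 0.05) and open where not, and the black line is the list's median. From no antibody to control antibody to IFNAR1 antibody the median was 1.81, 1.78 and 1.25 for the antiviral effectors, 0.99, 0.79 and 0.26 for signalling and feedback, and 2.48, 3.0 and 2.07 for the GBPs and IRGs.

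Ligands and receptors of the pathway showed no call. Of 21 interferon genes looked for, 14 had no count in any of the 6 libraries, Ifng, which encodes interferon-γ, among them. Ifnb1 had 1, 3 and 1 counts in the WT and 5, 1 and 1 counts in the cKO libraries. Summed over the interferon genes too low to test, there were 3, 3 and 3 counts in the WT and 6, 3 and 2 counts in the cKO libraries. At this depth a difference in interferon transcripts was not detectable. Ifnk alone could be tested, with at most 23 counts in a library, and was not called. Ifnar1, the receptor chain the antibody binds, was at 243, 179 and 232 CPM in the WT and at 250, 198 and 196 CPM in the cKO libraries (log2 fold change -0.02), and none of the 8 tested receptor and ligand genes was called.

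Outside the 4 interferon lists, the chemokine Cxcl10 was the 1 called among 26 tested cytokine and chemokine genes (list median 0.17). It was at 0.846, 2.01 and 1.29 CPM in the WT and at 9.26, 6.45 and 5.53 CPM in the cKO libraries (log2 fold change 2.38 with SE 0.51, adjusted p = 0.0453), and was not called without the 3 libraries (2.20, adjusted p = 0.512). Sensors of nucleic acids (24 tested, median 0.12), MHC class I (21, 0.15) and MHC class II genes (9, -0.86) held no call. Of 20 genes that the study names for its RNA-seq, 3 were called, Irf7, Ifi44 and Ifi204. The other 17 had log2 fold changes from -1.09 to 0.76 and a smallest adjusted p of 0.252. Among these, Tmem173, which encodes STING, was at 17.8, 16.4 and 30.6 CPM in the WT and at 22.9, 42.5 and 44.3 CPM in the cKO libraries (log2 fold change 0.76, adjusted p = 0.401), and Ddx58, which encodes RIG-I, had a log2 fold change of 0.64 (adjusted p = 0.533).

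Genes outside the 4 interferon lists were among the clearest differences. Of the 82 higher genes 42 were neither in the 4 lists nor raised by interferon-γ. The following 4 were singled out after their values were seen. Atp1b3, a subunit of the sodium-potassium pump that is also among the interferon-γ-raised genes, was at 222, 244 and 202 CPM in the WT and at 2142, 1932 and 2153 CPM in the cKO libraries (log2 fold change 3.22 with SE 0.12, adjusted p = 3.06e-10). Hgsnat, a lysosomal acetyltransferase of heparan sulfate breakdown, was at 169, 168 and 114 CPM against 1333, 965 and 1100 CPM (log2 fold change 2.92 with SE 0.20, adjusted p = 7.8e-07). Its neighbours Pomk, a kinase of dystroglycan sugars (15.9, 9.85 and 16.6 against 91.9, 92.0 and 96.5 CPM), and Fnta, a farnesyltransferase subunit (30.9, 26.6 and 39.9 against 57.0, 236 and 296 CPM), were also higher, by 2.72 and 2.59 on the log2 scale. The groups of these 4 genes did not overlap, and Atp1b3, Hgsnat and Pomk stayed called without the 3 libraries (3.33, 3.17 and 2.5), while Fnta did not (2.73, adjusted p = 0.0994).

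Other large differences outside the interferon lists were those of BC021767, Selenbp2, Acoxl, Atp6v0c-ps2 and Cd209f. BC021767, a transcribed locus, was at 1.84, 3.26 and 0.370 CPM in the WT and at 38.7, 31.1 and 41.1 CPM in the cKO libraries (log2 fold change 4.37, adjusted p = 0.000487), and the nearby Selenbp2, a selenium-binding protein gene, was at 0.769, 1.13 and 0.278 CPM against 10.9, 7.94 and 11.3 CPM (3.81). Acoxl, related to peroxisomal acyl-CoA oxidases, was at 0.538, 1.25 and 0.463 CPM against 2.22, 17.7 and 14 CPM (log2 fold change 3.94, adjusted p = 0.00423), with cKO replicate 1 the lowest of its group. Atp6v0c-ps2, a processed pseudogene of a proton pump subunit whose level is uncertain because reads that align equally well to its parent gene were left out, was at 1.96, 3.95 and 1.53 CPM against 53.6, 26 and 29.6 CPM (log2 fold change 3.90 with SE 0.35, adjusted p = 2.14e-05). These 4 stayed called without the 3 libraries (6.57, 5.07, 5.07 and 4.17). Cd209f, a C-type lectin gene, had 1 count in all WT and 80 in all cKO libraries, a ratio of 136 (exact 95% interval 23.7 to 5440), and its relative Cd209g, named after its values were seen, had none and 59, which is at least 33.5-fold higher against a floor of 3 counts over the group.

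Called genes often lay near each other. Of the 82 higher genes 47, and of the 34 lower genes 12, had another called gene within 1 Mb, which is 50.9% of the called genes against 12.0% of the other genes tested. Some of these were gene families of interferon response (the Ifit, Oas and Gbp clusters and that of Ifi204), and others were Hgsnat, Pomk and Fnta, BC021767 and Selenbp2, Cd209f and Cd209g, and Rpl29 and Pcbp4. Within 1 Mb of H3f3a 1 of 27 tested genes was called (Ephx1, 175 kb away), within 1 Mb of H3f3b none of 68, and within 1 Mb of Lyz2 1 of 16 (Lyz1).

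Among the lower genes whose groups were apart and whose mean log2 CPM over all libraries reached 2, the largest differences after Lyz2 and the H3.3 genes were those of Rpl29, Pcbp4, Fxyd2, Samd11 and Ephx1. Below that level, Gm5801, F9 and Wnk2 differed by -2.81, -2.48 and -2.37, and Myo18b had 33 counts in all WT and none in all cKO libraries, which is at least 6.46-fold lower against a floor of 3 counts over the group. Rpl29, a ribosomal protein gene with many processed copies, was at 145, 230 and 53.3 CPM in the WT and at 34.2, 28.9 and 27.0 CPM in the cKO libraries (log2 fold change -2.25, adjusted p = 0.0129). Pcbp4, an RNA-binding protein gene beside it, was at 12.7, 19.1 and 8.19 CPM against 3.68, 2.67 and 3.53 CPM (-2.01). Ephx1, the microsomal epoxide hydrolase, was at 112, 124 and 60.7 CPM against 33.9, 32.9 and 25.7 CPM (log2 fold change -1.68 with SE 0.23, adjusted p = 0.00119). In all 3 genes WT replicate 3 was the lowest WT library, and without the 3 libraries none was called (-0.94, -1.41 and -1.05). Fxyd2 (-1.97), a regulator of the sodium-potassium pump, Samd11 (-1.70) and the receptor phosphatase gene Ptprm (-1.65) also lost their call there.

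Gt(ROSA)26Sor, Bbip1 and Mcrip1 were lower with and without the 3 libraries. Gt(ROSA)26Sor was at 15.9, 19.3 and 15.4 CPM in the WT and at 7.67, 4.01 and 4.38 CPM in the cKO libraries (log2 fold change -1.64, and -1.88 without the 3). As counting ignored strand, reads that also overlap another gene on either strand were ambiguous and left out, so its level is uncertain. Bbip1, a subunit of the BBSome of cilia, was at 11.7, 11.7 and 11.6 CPM against 6.34, 4.17 and 2.67 CPM (-1.39, and -1.76 without the 3). Mcrip1, named after its values were seen, changed by -1.35 (adjusted p = 0.000175) and by -1.51 without the 3.

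Cell cycle, p53 and metabolic genes held no call under the block. All 32 mitosis genes (median log2 fold change -1.03) and all 40 DNA replication genes (median -0.52) lay below 0, but none was called, and without the 3 libraries the medians were -0.41 and -0.45. The medians were -0.28 and -0.10 with control antibody, and -0.40 and -0.02 without antibody, where none was called either. The summed level of the mitosis genes was 1570 to 4880 CPM in WT and 925 to 2810 CPM in cKO libraries of the arm, ranges that overlap. That of the DNA replication genes was 1390 to 1920 CPM in WT and 872 to 1300 CPM in cKO libraries, which do not overlap. Of these 40 genes, 17 had groups that were apart and lower in cKO cells, against 4.46% of all genes tested. With control antibody 2 of the 40 were apart and lower and without antibody 5, against 18.5% and 19.2% of all genes tested. Of the mitosis genes 18 were apart and lower without antibody, and none in the other arms. Of 30 p53 target genes none was called (median -0.34, and -0.05 without the 3), while 1 was lower with control antibody (median -0.22) and 14 were lower without antibody (median -1.0). Sterol synthesis (36 tested, median -0.59, and -0.17 without the 3), nucleotide synthesis (45, -0.07), apoptosis (34, 0.00), glycolysis (24, 0.13), lipid handling (26, -0.12), lysosome (28, -0.04), the integrated stress response (17, 0.08), immediate early genes (18, 0.05) and alternative activation (11, -0.07) held no call. No call was found either among the other H3 genes (10, -0.06), histone chaperones (18, -0.12), retroelement silencing (19, -0.01), surface receptors (34, 0.27), mitochondrially encoded genes (7, 0.33) or housekeeping genes (12, -0.10), and Csf3r was the 1 called of 19 macrophage lineage and growth factor receptor genes (0.16).

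Whether the cKO effect itself differed under the block was tested as an interaction. Against control antibody no gene was called (0.0% of 17191, smallest adjusted p = 0.0572), with 975 genes at an unadjusted p under 0.05. DESeq2 called 48 in this comparison, 14 with a more positive and 34 with a more negative log2 fold change under the block. Of these 34, 1 was in the 4 interferon lists (Gbp3) and 9 were raised by interferon-γ, shares to be read against the 0.617% and 7.49% of all genes tested. A replicate block by genotype called 7 genes, all with a more negative log2 fold change under the IFNAR1 antibody. Of these 7, 0 were in the interferon lists and 5 were raised by interferon-γ. Against no antibody 1 gene was called (0.00582%), and 731 had an unadjusted p under 0.05. This was Pxylp1, a phosphatase gene of proteoglycan synthesis, at 4.54, 4.01 and 3.47 CPM in WT and 1.21, 1.73 and 1.33 CPM in cKO libraries under the block (log2 fold change -1.49 with SE 0.22, adjusted p = 0.00263) and at 2.38, 2.02 and 2.53 CPM in WT and 3.25, 4.17 and 3.51 CPM in cKO libraries without antibody (0.65). The gene was lower in cKO cells in all pairs of libraries in the first case and higher in all in the second, a difference of -2.15 (adjusted p = 0.0402).

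Within each genotype, the IFNAR1 antibody was compared with the control antibody. In cKO cells 402 genes were higher and 290 lower with IFNAR1 antibody (2.34% and 1.69% of those tested, together 4.03%), and in WT cells 1174 and 526 (6.83% and 3.06%, together 9.89%). All 32 mitosis genes were higher with IFNAR1 antibody in WT (median log2 fold change 2.94) and 29 in cKO cells (median 2.11). Of the 40 DNA replication genes 23 were higher in WT (median 1.04) and 4 in cKO cells (median 0.43), and none was lower. The 11 tested stromal markers had medians of -0.71 in WT and -2.21 in cKO cells. The arms thus differed beyond the interferon genes, and the part of this in the values that follow was not tested. Of the 30 interferon list genes that were higher in cKO under the block, 10 were lower with IFNAR1 than with control antibody in cKO cells and none was higher (median log2 fold change -0.64). They were Ifi204, Ifi44, Oas1a, Oas1g, Oas2, Oas3, Oasl1, Oasl2, Rtp4 and Slfn5. In WT cells 5 of the 30 were lower, Oas1a, Oas1g, Oas2, Oasl2 and Slfn5, and none was higher (median -0.87). Over all 106 tested genes of the 4 interferon lists, 17 were lower and 0 higher in cKO cells (median -0.44). In WT cells 6 of the 106 were lower and 4 higher (median -0.07). Of the 52 other genes that were higher in cKO, 2 were higher and 3 lower with IFNAR1 antibody in cKO cells (median -0.09), and 4 and 5 in WT cells (median -0.12). Without the 3 libraries that stand apart, 12 of the 30 were lower in cKO cells (median -0.59), the 10 above with Irf7 and Usp18, among 448 higher and 301 lower genes in all. In WT cells, with 1 library of the IFNAR1 antibody left, none of the 30 was called (median -0.26), among 21 higher and 1 lower genes in all. The libraries of the IFNAR1 arm enter both these values and the cKO effect above. The 30 were picked as higher in cKO than in WT cells of this arm, so the choice itself favours low WT values.

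In cKO cells some interferon genes were lower with IFNAR1 than with control antibody, and for others no difference was called. The log2 fold change between the antibodies was -2.73 for Rtp4 (adjusted p = 0.0205), -2.45 for Oasl2 (adjusted p = 0.0192), -2.38 for Oas3 (adjusted p = 0.0187) and -2.31 for Slfn5 (adjusted p = 0.0019). Stat2 and Irf9 were also lower with IFNAR1 antibody, at -1.18 (adjusted p = 0.0102) and -0.99 (adjusted p = 0.0273). These 6 genes stayed called without the 3 libraries, at -3.7, -2.89, -3.4, -2.52, -1.30 and -1.09. In WT cells, with all libraries, Slfn5 (-2.03, adjusted p = 0.00258), Irf9 (-1.04, adjusted p = 0.0139) and Oasl2 (-2.05, adjusted p = 0.0433) were lower as well, whereas Rtp4 (-2.39, adjusted p = 0.0736), Oas3 (-1.42, adjusted p = 0.0752) and Stat2 (-0.18, adjusted p = 0.573) were not called. Irf7 was not called with all libraries (-1.50, adjusted p = 0.153) but was without the 3 (-2.40, adjusted p = 0.032). No such difference was called for Ifit3 (-0.08, adjusted p = 0.949), Ifit1 (-0.06, adjusted p = 0.952), Rsad2 (-0.02, adjusted p = 0.982), Gbp2 (-0.04, adjusted p = 0.971) or Isg15 (-0.46, adjusted p = 0.553), nor without the 3 libraries (-0.34, 0.13, 0.12, -0.01 and -0.50). With all libraries, none of them was called in WT cells either (-1.36, 0.01, 0.12, 0.47 and 0.21 in the same order). A p that misses the threshold does not show that the levels were the same, and whether the antibody effect differed between these genes was not tested.

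Genes chosen on other libraries were then read in the IFNAR1 arm. Of the genes called higher in cKO without antibody, 183 were raised by interferon-γ in WT cells, with a median log2 fold change of 1.81 in that arm, on which they were chosen. In the control antibody arm their median was 1.54 and all 183 were above 0, and in the IFNAR1 arm it was 0.96 with 182 above 0 and 38 called (20.8%, against 0.477% of all genes tested). The 399 other genes higher without antibody had medians of 0.59 with control antibody (378 above 0) and 0.50 with IFNAR1 antibody (389 above 0), and 36 of them were called under the block (9.02%). The 639 genes lower without antibody had medians of -0.42 with control antibody (569 below 0) and -0.43 with IFNAR1 antibody (602 below 0). In the arm without antibody, on which these genes were chosen, all WT libraries lay below all cKO libraries on the first principal component. The part of this component in the values was not tested. Without the 3 libraries that stand apart, the medians in the IFNAR1 arm were 0.68, 0.32 and -0.20, with 176 of the 183 and 345 of the 399 above 0 and 480 of 638 tested below 0.

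**Figure D5:**
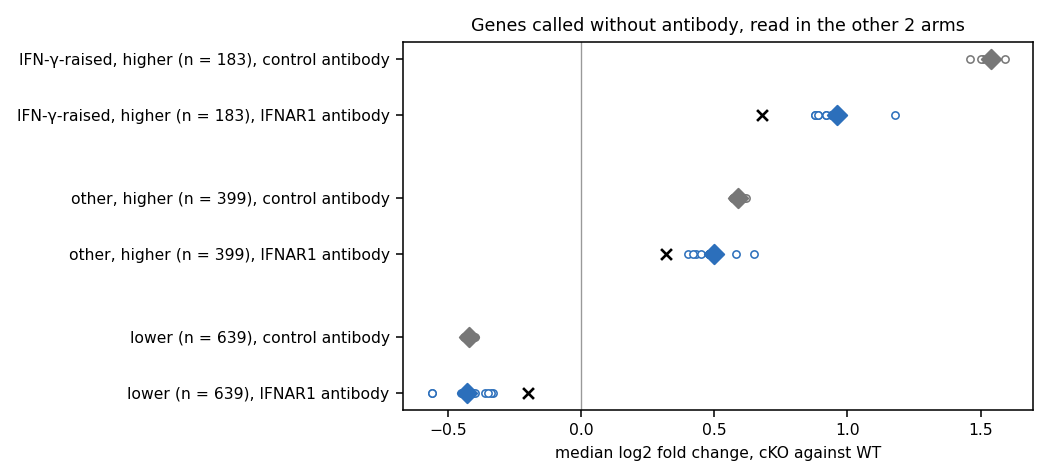
Diamonds give the median log2 fold change of cKO against WT, in the control antibody (grey) and IFNAR1 antibody (blue) arms, of genes called in the arm without antibody, open circles the same under the other fits, and crosses the value without the 3 libraries that stand apart. The interferon-γ-raised genes sit at 1.54 with control and 0.96 with IFNAR1 antibody, and the other higher genes at 0.59 and 0.50.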

How the data were processed

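By the methods and the submitters' processing notes, adapters were removed with Cutadapt and reads aligned to the mouse genome mm10 with STAR, versions not given. The authors deposited STAR's raw gene counts, and the column that ignores strand was used here, without the reads that were unmapped, multimapping, ambiguous or outside genes (the last 23.9 to 28.4% of reads in the 6 libraries). Of 54146 genes, 54079 matched a GENCODE M21 symbol. The 18 libraries of the antibody experiment were fitted together with 1 term per group (edgeR 4.0.16, R 4.3.3, TMM, filterByExpr with a smallest count of 10 and total of 15, quasi-likelihood test, Benjamini-Hochberg over 17191 genes). Interferon-γ-raised genes had an adjusted p under 0.05 and a log2 fold change over 1 in 3 treated against 3 untreated WT day 8 libraries. By the titles the treatment lasted 12 h, and by the methods the antibody cultures were lysed on day 6, so the list comes from older cells. Leaving out the 3 or 4 libraries that stand apart was chosen after seeing the data. It was also applied to the antibody comparison within each genotype, which was added to the planned tests. The tests were also run on simulated counts, drawn with the same spread for every gene (common dispersion 0.069). These counts hold no split among the libraries of the arm, so they do not bear on how the calls depend on single libraries. The named genes were H3f3a, H3f3b and Lyz2, the 12 higher and 12 lower called genes of largest log2 fold change whose groups are apart and whose mean log2 CPM reaches 2, the genes the study names, and up to 4 called members of each list. Genes named outside this rule were chosen after their values were seen. The members and lists were chosen with earlier results of these data known. No 2 libraries of a group differed by less than sampling noise (chi-square per degree of freedom 4.73 to 156 in the arm). Intervals and floors cover counting error only. Some values that fall under the rule for named genes are not reported here.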

Additional observations from a re-analysis of the deposited data

Results flagged for a closer look

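Pxylp1 stood out because its cKO effect differed between the arms by the test of the difference itself, with a log2 difference of -2.15 between IFNAR1 antibody and no antibody (edgeR's quasi-likelihood test, adjusted p = 0.0402). All 3 cKO libraries were below all 3 WT libraries with IFNAR1 antibody and above them without antibody, and the log2 fold change with control antibody was 0.10. It lies within 1 Mb of Atp1b3. The call was lost under 7 alternatives, among them the fit without the 3 libraries that stand apart, and in most fits with 1 library left out. The cause was not tested.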

How the results depend on the processing

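The 82 higher and 34 lower genes under the block kept their direction under every alternative that tested them, but Lyz2 alone of the 51 named genes that were called passed under all of them. The 116 calls became 310 with DESeq2 (172 higher, 138 lower, which moves the share of higher calls from 70.7 to 55.5%), 114 with RLE normalization, 151 without a filter on low counts, 120 with a mean of at least 1 CPM, 91 with 1 strand column, 36 and 80 without the 3 or 4 libraries that stand apart (WT replicate 2 without antibody being the fourth), 7 with the 6 libraries alone and 52 to 740 with 1 library left out. Splits of higher and lower calls were 51.2% higher without WT replicate 3, 53.6% without cKO replicate 1 and 80.8% without cKO replicate 3. Same-numbered WT and cKO libraries of the arm correlated by 0.397, -0.417 and 0.609, so the numbers do not pair the genotypes. Within a genotype, IFNAR1 and control antibody libraries gave 0.029, 0.0765 and 0.169 in WT and 0.14, 0.0912 and 0.092 in cKO cells. IFNAR1 antibody and no antibody gave -0.226, 0.634 and 0.168 in WT and 0.322, 0.201 and 0.248 in cKO cells. Control antibody and no antibody gave 0.149, 0.145 and 0.284 in WT and 0.192, 0.0703 and 0.135 in cKO cells. Different-numbered libraries of this last comparison gave -0.179 to -0.047 in WT and -0.141 to -0.0095 in cKO cells. Those of IFNAR1 and control antibody gave -0.147 to 0.0863 in WT and -0.133 to 0.0235 in cKO cells. All these are correlations of deviations from group means, which cancel within a group. Positive values for equal numbers thus push those for different numbers down, so the latter are no separate evidence on pairing. Whether the numbers pair libraries within a genotype was not settled, and the main fit does not pair them. A replicate block gave 154 calls, and 1 with the 6 libraries alone. The cause of these differences was not tested.

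The interaction against control antibody, 0 calls, gave 48 with DESeq2, 10 without a filter on low counts, 2 with a mean of at least 1 CPM, 7 with a replicate block by genotype (all 7 with a more negative effect under the IFNAR1 antibody, none in the interferon lists and 5 raised by interferon-γ), 1 and 1 without the 3 or 4 libraries and 0 to 5 with 1 left out. Against no antibody, 1 call became 3 with DESeq2 and 0 without a filter, with 1 strand column, with either replicate block, with the arms compared alone and without the 3 or 4 libraries, and 0 to 1 with 1 left out. The cKO effect with control antibody ranged from 290 to 499 calls with 1 library left out, and that without antibody from 352 to 2919, with 2175 in DESeq2. Of the antiviral effectors 18 were higher, against 2 with the 6 libraries alone, 0 with the block in those 6, 1 and 1 without the 3 or 4 libraries and 9 to 20 with 1 left out, and of the 4 interferon lists 30, against 2, 0, 1, 1 and 11 to 40. The log2 fold change of Ifnar1 was -0.14 to 0.07 with 1 library left out and -0.24 (SE 0.112) without the 3. Other alternatives kept these counts within 1.5 times.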

Other observations

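The genes called under the block were also read in 3 further sets of WT and cKO BMDMs grown without antibody, which share no library with the antibody experiment. In these sets H3f3a was lower in cKO cells by a log2 fold change of -2.86, -2.35 and -2.85, whereas H3f3b changed by -0.28, -0.32 and -0.33, against -3.12 under the block. The paper describes the loss of H3f3b as variable, complete in some cKO samples and partial in others. The sets thus differ from the IFNAR1 arm in H3f3b transcripts, and the part of this in the values below was not tested. Of the 82 genes higher under the block 80 could be tested there, and 59, 47 and 53 of them were called higher in sets A, B and C (edgeR's quasi-likelihood test, median log2 fold changes 1.30, 1.06 and 1.22), against 17.1%, 8.91% and 16.2% of all genes tested. In all 3 sets 40 were higher. Of the 34 lower genes 33 could be tested, and 19, 13 and 18 were called lower (medians -0.61, -0.32 and -0.53), against 15.5%, 10% and 16.8% of all genes. Atp1b3, Ifit3, Ifit1, Oasl2, Rtp4, Irf7 and Isg15 were higher in all 3 sets. Hgsnat, Pomk, Fnta, Atp6v0c-ps2, BC043934 and Rsad2 were higher in cKO cells in all 3 arms of the antibody experiment but were not called higher in any of the sets, with log2 fold changes of 0.36, -0.32 and 0.16 for Hgsnat. The same held for Rnf7, Senp7, Ppm1h, Csf3r and Gm18697.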
